A study of Homo sapiens with 6 samples.

Results

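S100 proteins are small calcium-binding proteins of the EF-hand family. The set described here holds 10 of their genes, S100A2, S100A4, S100A6, S100A7, S100A8, S100A9, S100A10, S100A11, S100A14 and S100P, and was taken as every probe that the platform annotation assigns to these symbols. That gave 12 of the 47323 probes and 10 of the 20046 named genes on the array. S100A4 and S100A10 had 2 probes each, and the brighter one represents the gene unless stated. The genes were measured in total RNA of 2 established human lung cancer lines on Illumina HumanHT-12 v4 beadchips, with 1 array for each of 6 groups. The groups were H460 cells with the LZTFL1 vector (pSIn-E2F-LZTFL1-ires-GFP-puro), H460 cells with the GFP control vector (pSin-E2F-GFP-puro), and HCC95 cells with either vector, each labelled as treated with TGFβ or as untreated. All cells grew in DMEM with fetal bovine serum, and all carried a GFP and puromycin vector. The dose and duration of TGFβ were not given. HCC95 is a line from a squamous lung cancer and H460 a line from a large cell lung cancer, and LZTFL1 encodes a leucine zipper protein that helps control which proteins enter and leave cilia.

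On binding calcium, most S100 dimers expose a surface that grips other proteins, such as annexins, myosin and cytoskeletal linkers. Some members are also released from cells, and S100A8 with S100A9, the subunits of calprotectin, act outside as ligands of TLR4 and of AGER, the receptor for advanced glycation end products. In stratified and airway epithelia several members mark differentiation, injury or inflammation, and S100A4 and S100P are known for their link to motility and metastasis of carcinoma cells.

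Values below are normalized intensities on the log2 scale, and differences are log2 differences of them. A value of 1 array has no replicate, so a difference between 2 arrays has no test. The tests come from additive limma models over 4 or 6 arrays, in which the only error is how far an effect differs between the arrays it was measured in. Their p-values, adjusted over all features fitted and called at 0.05, do not measure a spread between cultures. A feature is a named gene, or a probe to which the annotation gave no symbol or several. Counts and medians over all genes fitted or called are over features. Because little residual freedom is left, each standard error (SE) is drawn largely from other genes of like brightness.

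The median probe signal of the 6 arrays lay between 104 and 125, and 14136 to 16423 probes were detected, fewest on the TGFβ-labelled arrays. Checks of the labels went against them in part. The single LZTFL1 probe (ILMN_1815705) read 6.39 with the LZTFL1 vector against 6.36 with GFP in H460. In untreated HCC95 it was not detected with the LZTFL1 vector, against a reading of 5.75 with GFP, and it was not detected on either TGFβ-labelled array. Whether that probe lies in the sequence the vector carries was not given. PMEPA1 (ILMN_1734276), a gene that TGFβ is known to induce, read 6.21 with LZTFL1 and 7.16 with GFP on the TGFβ-labelled arrays, against 9.53 with LZTFL1 and 9.38 with GFP on the untreated ones. The arrays are therefore named by their labels throughout. Squamous markers KRT5, KRT14, DSG3, DSC3 and SOX2 were detected on all 4 HCC95 arrays, 5 of 5. On the H460 arrays 1 or 2 of the 5 were detected, and EPCAM and CDH1 were not detected there.

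Of the 10 genes, 9 lie on chromosome 1 and S100P on chromosome 4. In the reference gene table (RefSeq, GRCh38.p14) S100A10 and S100A11 are neighbours, and further along the order is S100A9, S100A8, S100A7, S100A6, S100A4, S100A2 and S100A14. The RefSeq promoter table of the same build matched all 10 genes, with 13 start sites. The 60 bases around each start, 50 before and 10 from the start on, are shown because the genes differ in them along with their response to the TGFβ label given below. They are written along the gene's own strand, and capitals mark the letters TATAAA.
S100A8 (chr1:153390967-153391026, minus strand): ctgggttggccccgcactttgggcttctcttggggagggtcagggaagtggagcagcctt
S100A8 (chr1:153391064-153391123, minus strand): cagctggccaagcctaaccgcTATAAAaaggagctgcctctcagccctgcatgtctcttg
S100A8 (chr1:153391179-153391238, minus strand): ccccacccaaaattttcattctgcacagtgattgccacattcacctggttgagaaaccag
S100A9 (chr1:153357804-153357863, plus strand): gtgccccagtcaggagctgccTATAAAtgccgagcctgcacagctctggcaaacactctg
S100A7 (chr1:153460642-153460701, minus strand): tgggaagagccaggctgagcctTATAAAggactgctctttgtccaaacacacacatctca
S100A4 (chr1:153545797-153545856, minus strand): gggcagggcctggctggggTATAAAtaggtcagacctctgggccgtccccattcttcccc
S100P (chr4:6693828-6693887, plus strand): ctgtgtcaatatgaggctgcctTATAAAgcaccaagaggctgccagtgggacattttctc
S100A2 (chr1:153563878-153563937, minus strand): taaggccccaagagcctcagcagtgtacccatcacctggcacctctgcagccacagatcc
S100A2 (chr1:153565835-153565894, minus strand): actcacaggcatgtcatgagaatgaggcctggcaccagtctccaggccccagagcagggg
S100A6 (chr1:153535982-153536041, minus strand): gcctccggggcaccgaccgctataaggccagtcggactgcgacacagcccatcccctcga
S100A10 (chr1:151993850-151993909, minus strand): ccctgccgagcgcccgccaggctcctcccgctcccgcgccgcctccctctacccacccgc
S100A11 (chr1:152036995-152037054, minus strand): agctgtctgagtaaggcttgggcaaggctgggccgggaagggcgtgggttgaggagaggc
S100A14 (chr1:153616316-153616375, minus strand): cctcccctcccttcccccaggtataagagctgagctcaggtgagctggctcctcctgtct
The letters TATAAA stood on the gene's own strand before a start of S100A8, S100A9, S100A7, S100A4 and S100P. They began 29 bases before the start in S100A8 and S100A9, 28 in S100A7 and S100P, and 31 in S100A4. None of the windows of S100A2, S100A6, S100A10, S100A11 and S100A14 held them, though the windows of S100A6 and S100A14 held the shorter TATAA. Over all 35116 windows of the table, 2.76% held TATAAA and 5.11% held TATAA in these 60 bases. Counted by gene, 3.48% of 27305 genes held TATAAA in at least 1 window. The full windows of 300 bases were read on both strands, and percentages in brackets are shares of all windows. The C/EBP motif TTNNGNAA matched in 5 of the 10 genes, in 7 of their 13 windows (36.8%). The S100A8 windows among the 7 overlap and share 1 site, which is thus counted more than once. No share by gene was computed for this motif. The AP-1 motif TGANTCA matched in 1 gene, S100A2 (7.71%). The kappaB motif matched in S100A14 alone (11.3%), and the STAT motif TTCNNNGAA in none of the 10 (7.66%). The motifs were chosen with the expression results known, a match is a description of letters and not of a bound factor, and no motif contains another apart from TATAA within TATAAA.

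**Figure D1:**
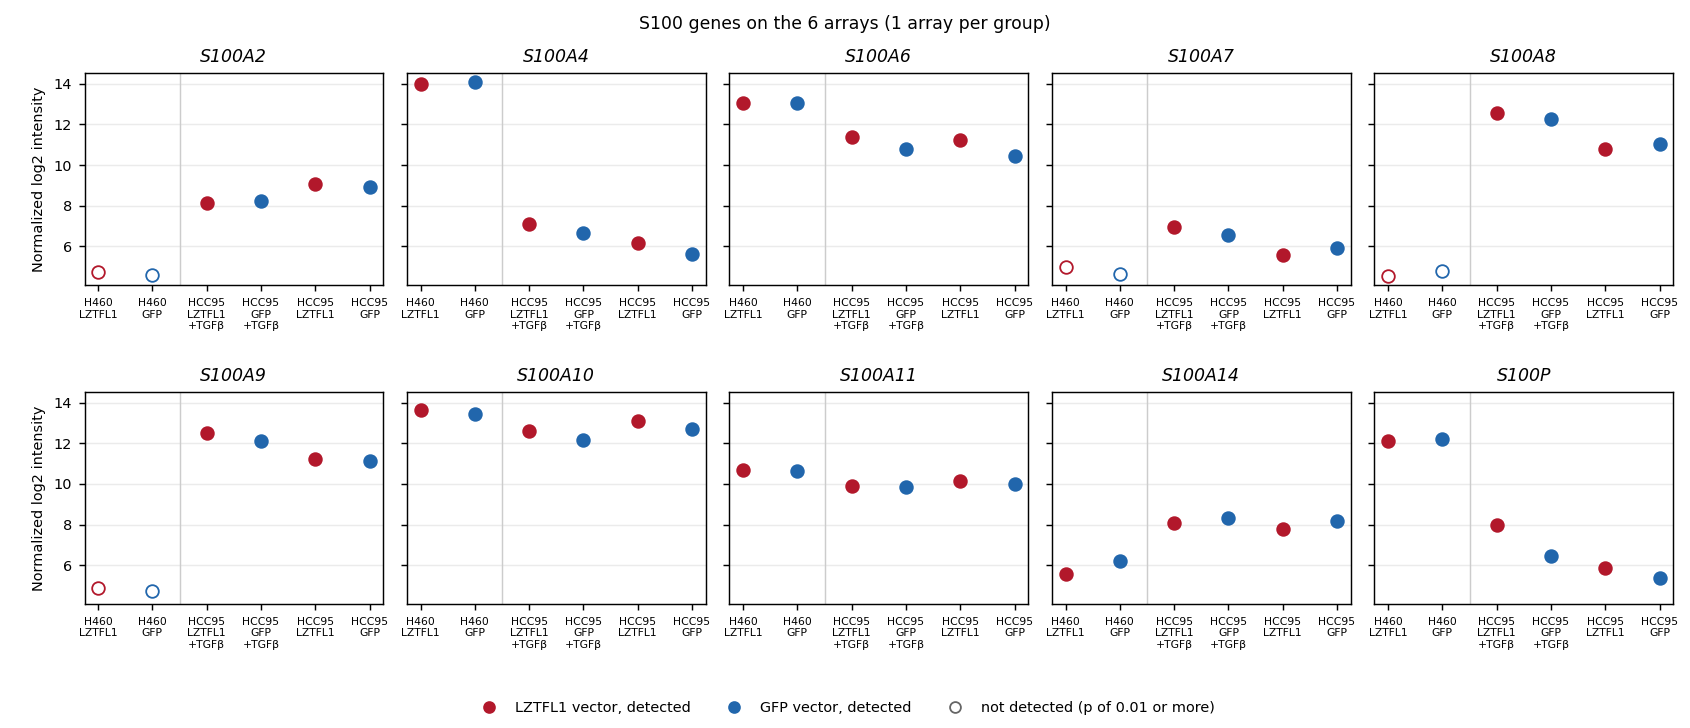
Normalized log2 intensity (y axis) of each of the 10 S100 genes on the 6 arrays (x axis), 1 point per array, red for the LZTFL1 vector and blue for GFP; open points were not detected. S100A4 and S100P stood highest on the 2 H460 arrays, where S100A2, S100A7, S100A8 and S100A9 were not detected, and S100A8 and S100A9 stood higher on the TGFβ-labelled HCC95 arrays than on the untreated ones.

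The comparison of TGFβ-labelled with untreated HCC95 cells asked what differed with the TGFβ label with either vector. The calprotectin genes S100A8 and S100A9, the antimicrobial psoriasin gene S100A7, the metastasis-linked S100A4 and S100P rose, and S100A2 and S100A10 fell. In the additive limma fit over 4 arrays, 5 of the 10 genes were called higher and 2 lower. Of 12735 features, 3.42% were called higher and 2.76% lower. The 10 genes had a median effect of 0.64 against 0.00 over all genes fitted. S100A6, S100A11 and S100A14 did not pass the test. In RNA of whole cultures, more expressing cells and more RNA per cell cannot be told apart. When arrays were scaled by their medians and not quantile-normalized, which moved the median of all genes to -0.21, the split of all calls was 121 higher and 746 lower, against 435 and 351, and the same 7 of the 10 genes were called in the same directions. Without the mean-variance trend, or without the vector as a term, S100A8 alone of the 10 was called (limma adjusted p = 0.0316 and 0.0342).

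S100A8 (ILMN_1729801) read 12.56 with LZTFL1 and 12.28 with GFP on the TGFβ-labelled arrays, against 10.79 with LZTFL1 and 11.03 with GFP on the untreated ones. The labelled arrays lay above the untreated ones by 3.39-fold with LZTFL1 and 2.37-fold with GFP. The fitted effect was 1.50 (SE 0.124, limma adjusted p = 1.93e-09), a 2.84-fold rise. In the processed linear intensities of the authors' deposited table, S100A8 had 5989 with LZTFL1 and 4933 with GFP on the labelled arrays, against 1750 and 2067 on the untreated ones. Its partner S100A9 (ILMN_1750974), which forms calprotectin with it and lies 1 coding gene away, read 12.50 and 12.09 on the labelled arrays with LZTFL1 and GFP, against 11.22 and 11.12 on the untreated ones. The fit gave a rise of 1.12 (SE 0.117, limma adjusted p = 1.65e-07), or 2.18-fold. The 2 calprotectin genes moved closely together, with Pearson's r of 0.98 over the 4 HCC95 arrays, which is a description of arrays that share their groups.

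Psoriasin, S100A7 (ILMN_1757351), a secreted antimicrobial protein of keratinized epithelium, was dim in HCC95. It read 6.95 with LZTFL1 and 6.57 with GFP on the labelled arrays, against 5.55 with LZTFL1 and 5.90 with GFP on the untreated ones. The fitted rise was 1.03 (SE 0.239, limma adjusted p = 0.00764). S100A8 and S100A9 are also abundant in white blood cells, so markers of white blood cells were read beside them. Of 10 such markers CD68 was the only one detected on any HCC95 array, and it rose by 0.80 in the fit (SE 0.153, limma adjusted p = 0.00128). The summed linear intensity of the list was 1349 with LZTFL1 and 1076 with GFP on the labelled arrays, against 664 and 794 on the untreated ones. PTPRC, LYZ, ITGAM, CSF1R, CSF3R, FCGR3A and S100A12 were not detected on any of the 6 arrays. The part of CD68-expressing cells in the result was not tested.

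Among the motility-linked members, S100A4, which binds the heavy chain of non-muscle myosin, was near the detection limit in HCC95. Its brighter probe there (ILMN_1684306) read 7.11 with LZTFL1 and 6.66 with GFP on the TGFβ-labelled arrays, against 6.16 with LZTFL1 and 5.63 with GFP on the untreated ones. The fitted rise was 0.99 (SE 0.222, limma adjusted p = 0.00564). The other S100A4 probe (ILMN_1688780) was not detected on any HCC95 array, and with the mean of both probes the effect was 0.76 and missed the threshold (limma adjusted p = 0.0751). S100A4 is also known from fibroblasts, and of 8 stromal markers THY1 was detected on the labelled HCC95 arrays and THY1, COL1A1 and COL1A2 on the untreated ones. Their summed linear intensity over the list was 767 with LZTFL1 and 1810 with GFP on the labelled arrays, against 582 and 952 on the untreated ones, and COL3A1, DCN, LUM and PDGFRA were not detected on any array. THY1 itself rose by 0.78 in the fit (SE 0.147, limma adjusted p = 0.00108), and COL1A1 and COL1A2 were not called. Their part in the result was not tested.

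S100P, which binds ezrin and, when released, AGER, had the largest fitted effect of the 10 genes, though with an offset of 50 or without background correction S100A8 had the larger one. Its probe (ILMN_1801216) read 7.95 with LZTFL1 and 6.45 with GFP on the labelled arrays, against 5.85 with LZTFL1 and 5.38 with GFP on the untreated ones. The array with both LZTFL1 and TGFβ in its label stood highest and apart from the other 3. The fitted rise was 1.58 (SE 0.242, limma adjusted p = 8.47e-05), made of a difference of 2.10 with LZTFL1 and 1.06 with GFP. The residual SD of S100P itself was 0.519, larger than that SE. With an offset of 50 the effect was 1.15, against 1.49 for S100A8. Without background correction, which compresses dim probes, it was 0.82, against 1.46 for S100A8. The difference between its 2 pair values, 1.04, was matched or exceeded in size by 2.45% of the 12735 features.

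S100A2, an S100 protein of basal epithelial cells, moved the other way. It read 8.13 with LZTFL1 and 8.24 with GFP on the labelled arrays (ILMN_1725852), against 9.08 with LZTFL1 and 8.92 with GFP on the untreated ones. S100A2 fell by 0.82 in the fit (SE 0.157, limma adjusted p = 0.00146). S100A10, the annexin A2 partner that helps recruit plasminogen to the cell surface, read 12.61 and 12.18 on the labelled arrays with LZTFL1 and GFP (ILMN_2046730), against 13.12 and 12.72 on the untreated ones. The fit gave a change of -0.53 (SE 0.105, limma adjusted p = 0.00196). The dimmer S100A10 probe (ILMN_1796712) moved alike, by -0.39 with LZTFL1 and -0.46 with GFP.

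The 3 genes that did not pass had narrow intervals. The fitted effect of S100A6 (calcyclin, ILMN_1713636), which binds the ubiquitin ligase adaptor CACYBP, was 0.28 with a 95% interval of 0.03 to 0.53 (limma adjusted p = 0.191). That of S100A14 (ILMN_1783287), a member of epithelial tissues, was 0.25 with an interval of -0.09 to 0.59 (limma adjusted p = 0.418). S100A11 (ILMN_1750101), an annexin A1 partner, had -0.20 with an interval of -0.47 to 0.08 (limma adjusted p = 0.428). These intervals leave out a 2-fold change of any of the 3, within the error that the fit can measure.

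**Figure D2:**
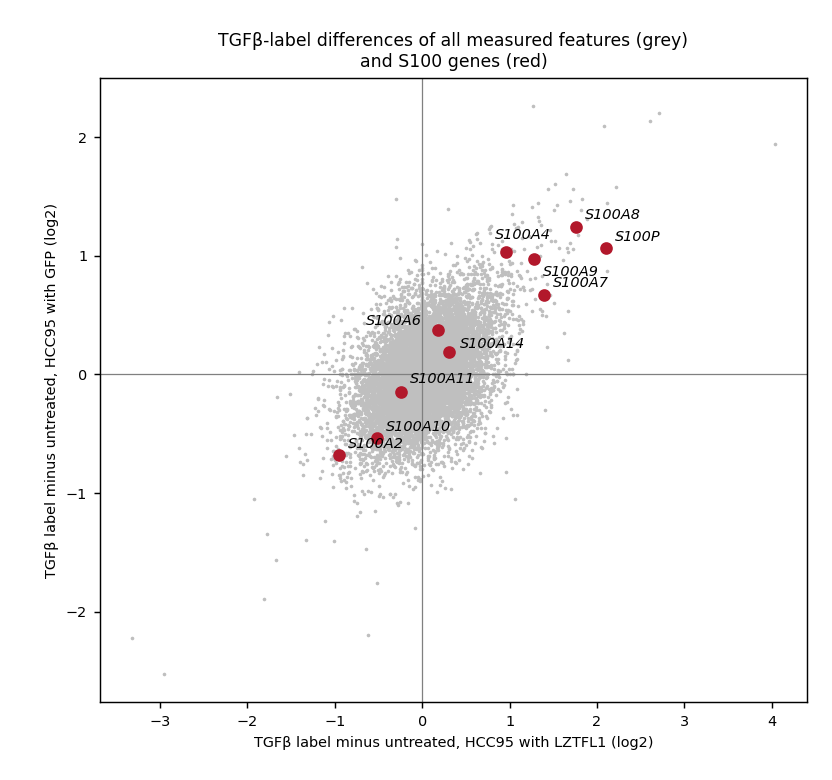
Log2 difference of TGFβ-labelled over untreated HCC95 arrays with the LZTFL1 vector (x axis) and with the GFP vector (y axis), 1 grey point for each of the 12480 features measured in both and a red point for each S100 gene. S100A8, S100P, S100A9, S100A7 and S100A4 lay at the upper right edge, S100A2 and S100A10 at the lower left, and the other 3 inside the main cloud.

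The 2 vectors gave separate pairs of arrays for this comparison. All 10 genes had the same sign in both pairs, where 61.6% of 12480 features did. A feature not detected on 1 array could have its difference set to 0 in 1 pair alone, which counted as a different sign. The 10 genes were detected on every HCC95 array, so the 61.6% is not a like share. Their shared sign did not hold in every alternative setting. S100A14 ran from -0.17 to 0.19 over the settings with GFP, and from 0.19 to 0.31 with LZTFL1. With LZTFL1, 4 of the 10 were 2-fold or more higher (S100P, S100A8, S100A7 and S100A9), against 0.959% of features, and with GFP 3 were (S100A8, S100P and S100A4), against 0.65%. None was 2-fold lower in either pair, against backgrounds of 0.552% with LZTFL1 and 0.239% with GFP. S100A8 and S100P were 2 of the 47 features that passed 2-fold higher in both. By rank, 7 features had larger differences than S100P and 13 than S100A8 in the pair with LZTFL1, of 13769, and 66 and 29 features did in the pair with GFP, of 13386.

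In the main setting the 5 genes that rose were those with TATAAA before a start. The 5 without it were the 2 that fell and the 3 that did not pass. Among the genes of this fit that have a window in the promoter table, TATAAA stood in the 60 bases of 12.5% of the 273 called higher, 3.11% of the 257 called lower and 2.0% of the 7399 not called. These shares are counts of letters, they include the S100 genes themselves, and no test was made of them.

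Other genes of the S100 pathway were read for the TGFβ label. Of 11 other S100 genes on the array, 3 were fitted (S100A3, S100A13 and S100A16) and none was called. S100A5 was detected on a single array, at 5.98 in untreated HCC95 with LZTFL1, and the other 7 on none of the 6. Of 12 fitted binding partners, 1 was called higher and 3 lower, where 3.42% and 2.76% of all features were. PLAT, tissue plasminogen activator, which S100A10 with annexin A2 binds, rose by 0.52 (SE 0.118, limma adjusted p = 0.00718). ANXA2, the annexin that pairs with S100A10, fell by 0.44 (SE 0.104, limma adjusted p = 0.00918), and its other 2 detected probes were lower in both pairs as well. The scaffold AHNAK, which the S100A10 and annexin A2 complex binds, changed by -0.54 (SE 0.128, limma adjusted p = 0.00862), but its other 2 detected probes had 0.22 and -0.23 with LZTFL1, and 0.41 and 0.08 with GFP. TUBA1B, an alpha tubulin, fell by 0.44 (SE 0.0986, limma adjusted p = 0.00637). Of 3 fitted receptors and adaptors, MYD88, BSG and ALCAM, none was called, and TLR4, AGER and CD36 were not detected on any HCC95 array.

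The epidermal differentiation complex, the block of chromosome 1 that holds cornified envelope genes among the S100 genes, was also read. Of 20 listed genes 8 were fitted, and 5 of the 8 were called higher with the TGFβ label and none lower, with a median effect of 0.72, where 3.42% of all genes were called higher. One of the 5, CRNN, passed the filter on detection through the TGFβ-labelled arrays alone, so its call was open in 1 direction only. SPRR2D, a small proline-rich precursor of the cornified envelope, read 7.92 with LZTFL1 and 7.33 with GFP on the labelled arrays, against 6.81 and 6.51 on the untreated ones, a rise of 0.97 (SE 0.192, limma adjusted p = 0.00194). SPRR2F rose by 0.90 (SE 0.190, limma adjusted p = 0.00337) and SPRR2A by 0.80 (SE 0.190, limma adjusted p = 0.00913). CRNN, which encodes the S100-fused protein cornulin, was detected only on the 2 TGFβ-labelled arrays, at 6.59 with LZTFL1 and 5.92 with GFP. Of the 5 squamous markers, KRT5 had 0.06 (limma adjusted p = 0.788), and the desmosomal cadherins DSG3 and DSC3 fell by 0.55 and 0.62 (limma adjusted p = 0.0245 and 0.00672).

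**Figure D3:**
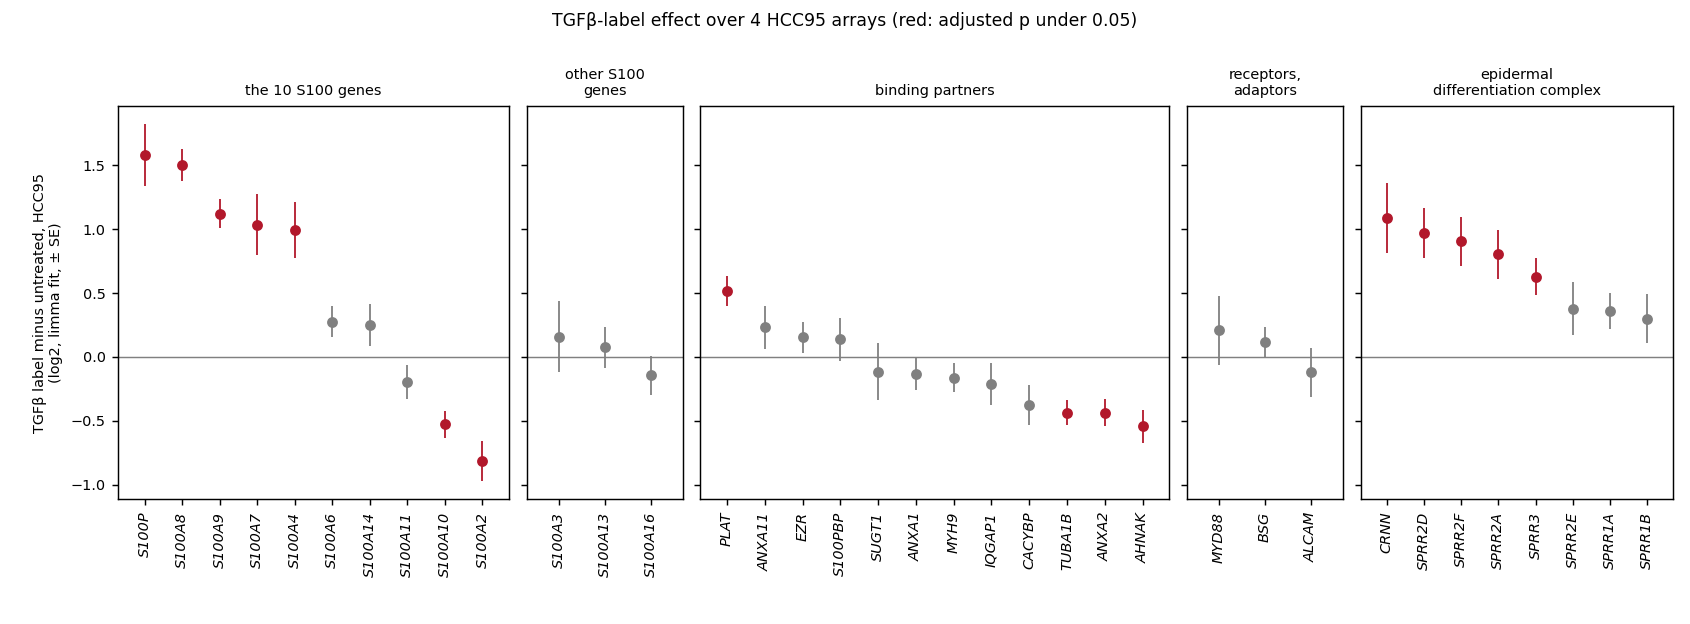
Effect of the TGFβ label in HCC95 (y axis, log2, limma fit over 4 arrays, bars are SE) for the 10 S100 genes, other S100 genes, S100 binding partners, receptors with adaptors, and the epidermal differentiation complex; red points passed the adjusted threshold of 0.05. The red points above 0 are 5 S100 genes, PLAT and 5 genes of the differentiation complex.

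The LZTFL1 vector was set against GFP in 3 contexts, to ask what the tumour suppressor candidate does to expression. In HCC95, over the 2 treatment labels together, S100P, S100A6 and S100A10 were called higher, S100A13 outside the set moved alike, and none of the 10 was called lower. That is 3 of 10 where 3.74% of 12735 features were called higher and 3.89% lower. The median effect of the 10 genes was 0.17, against 0.01 over all genes fitted. Cell type markers differed between the vectors in the same fit. Of 5 squamous markers, the basal keratin KRT14 fell by 1.60, DSG3 by 1.04 and DSC3 by 0.82 (limma adjusted p = 2.04e-09, 3.22e-05 and 0.000351). The summed linear intensity of the 5 was 11036 with LZTFL1 against 12878 with GFP on the labelled arrays, and 11761 against 13764 on the untreated ones. Of 5 general epithelial markers the keratins KRT8 and KRT19, 2 of the 5, were called higher and none lower, with sums of 17447 against 14675 on the labelled arrays and 19397 against 16739 on the untreated ones. Of 3 fitted stromal markers THY1 was called, with -1.09 (SE 0.147, limma adjusted p = 1.42e-05). Their part in the S100 results was not tested. In H460 the differences of the 6 detected genes ran from -0.67 to 0.22. With median scaling the split of all HCC95 calls was 110 higher and 290 lower, against 476 and 496, and S100P and S100A6 were still called while S100A10 was not (limma adjusted p = 0.105).

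S100A6 read 11.40 with LZTFL1 against 10.79 with GFP on the TGFβ-labelled HCC95 arrays, and 11.21 against 10.42 on the untreated ones. It was higher with LZTFL1 in both, and the fitted effect was 0.70 (SE 0.122, limma adjusted p = 0.000454), or 1.62-fold. In H460 it read 13.05 on either array, where quantile normalization gave it the same rank. S100A10 was 0.43 and 0.40 higher with LZTFL1 on the labelled and the untreated HCC95 arrays, and the fit gave 0.42 (SE 0.105, limma adjusted p = 0.0134). Its other probe gave 0.35 and 0.28 there, and the 2 probes had opposite signs in H460, 0.22 and -0.15.

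S100P was 1.51 higher with LZTFL1 on the labelled HCC95 arrays, 0.47 higher on the untreated ones and -0.08 in H460. Its rise over both HCC95 labels was 0.99 (SE 0.242, limma adjusted p = 0.0110), but most of it came from the labelled pair, in which 3 of 12443 features were higher. It was the 1 gene of the 10 to pass 2-fold there, where 0.418% of features did. On untreated arrays none of the 10 passed 2-fold either way, where 1.02% of features did, and in H460 none of the 6 measured, where 0.155% did.

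The other 7 genes were not called in HCC95. S100A4 had 0.49, with a 95% interval of 0.03 to 0.94 (limma adjusted p = 0.192), and was higher with LZTFL1 in both HCC95 pairs. S100A9 had 0.25, with an interval of 0.01 to 0.49 (limma adjusted p = 0.207). S100A14 was the 1 member lower with LZTFL1 in all 3 contexts, by -0.26 and -0.37 in labelled and untreated HCC95 and -0.67 in H460, and was not called (limma adjusted p = 0.267 over HCC95). Its H460 readings, 5.55 with LZTFL1 and 6.22 with GFP, lay near the lowest detected values of those arrays, 5.38 and 5.59. Over the alternative settings the H460 difference ran from -0.67 to -0.27. Fitted effects of S100A2, S100A7 and S100A8 were 0.03, 0.02 and 0.02, each changed sign between the labelled and the untreated pair, and median scaling turned them to -0.06, -0.06 and -0.00. S100A11 had 0.10, with an interval of -0.17 to 0.37.

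Over all 3 contexts none of the 10 genes was called for LZTFL1. Of 14101 features 1 was called (0.00709%), against 1394 at an unadjusted p under 0.05. S100A10 had the lowest adjusted p there, 0.370 by limma, with an effect of 0.35. The interaction of vector with line tests whether H460 differed from HCC95. It called none of the 10, where 0.305% of features were called. It gave S100P -1.06 (SE 0.328, limma adjusted p = 0.190) and S100A6 -0.70 (SE 0.196, limma adjusted p = 0.138).

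S100A13, which takes part in the release of fibroblast growth factor FGF1 and is not one of the 10, passed both tests in the main setting. Its brightest probe (ILMN_1765459) read 8.87 with LZTFL1 against 7.78 with GFP on the labelled HCC95 arrays, 8.73 against 7.77 on the untreated ones, and 10.68 against 10.85 in H460. A second probe (ILMN_2407168) was higher by 0.74 and 0.64 in the HCC95 pairs. The HCC95 rise was 1.02 (SE 0.161, limma adjusted p = 0.000118), and the difference of H460 from HCC95 was -1.19 (SE 0.249, limma adjusted p = 0.0248). Both calls depend on the setting. Without the TGFβ term no gene was called higher in HCC95. In the test between lines no gene was called lower with an offset of 50, median scaling, the mean of probes or no trend. Of the partners, EZR, the ezrin that S100P binds, was called, with 0.46 (SE 0.119, limma adjusted p = 0.0155), the only 1 of 12 fitted. Over all features of the HCC95 fit, 3.74% were called higher and 3.89% lower. ALCAM, a receptor of the immunoglobulin family, was lower by -0.71 (SE 0.191, limma adjusted p = 0.0196). None of the 8 fitted genes of the differentiation complex was called for LZTFL1.

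**Figure D4:**
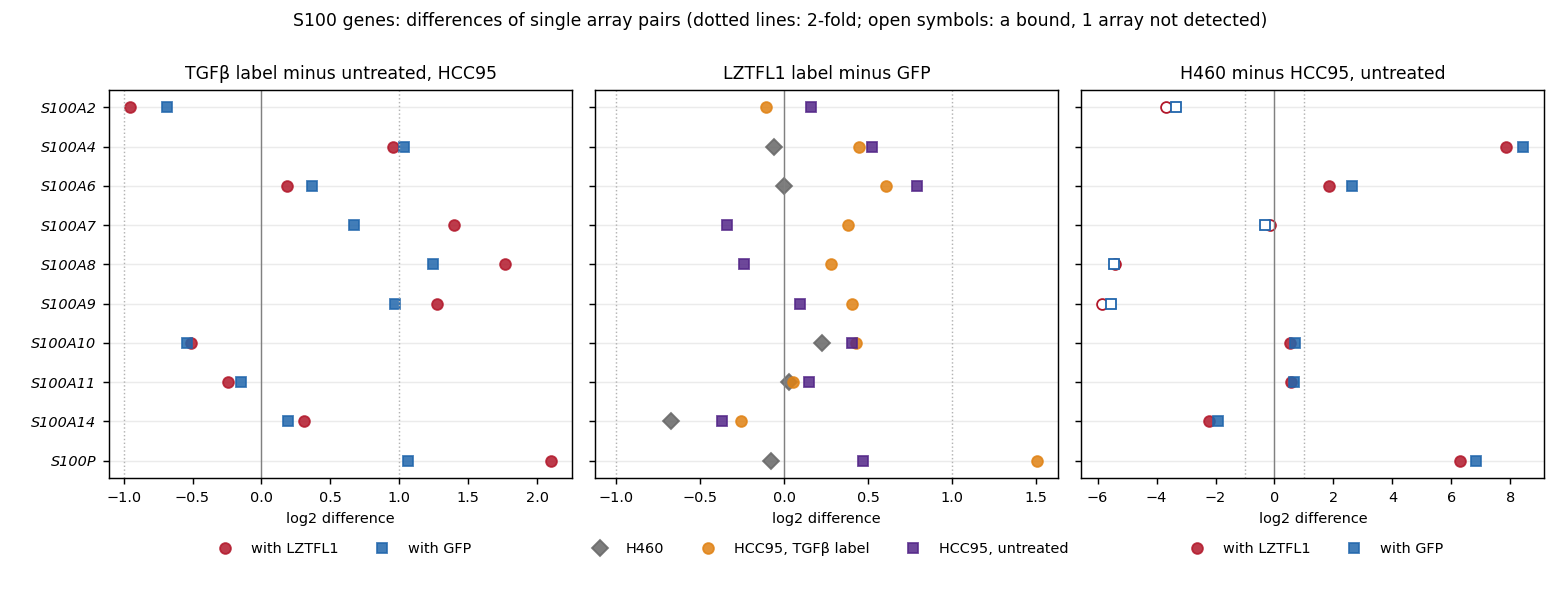
Log2 differences of single array pairs (x axis) for the 10 S100 genes (y axis), as TGFβ label minus untreated in HCC95, LZTFL1 label minus GFP in each context, and H460 minus HCC95 on untreated arrays; dotted lines mark 2-fold and open symbols a bound. S100P lay at 2.10 and 1.06 for the TGFβ label and at 1.51 for LZTFL1 on TGFβ-labelled arrays, and the 2 lines differed by over 6 in S100A4 and S100P.

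The 2 cell lines had different S100 repertoires. H460 carried S100A4 and S100P at high level and lacked detectable S100A2, S100A7, S100A8 and S100A9, which HCC95 all expressed. S100A6, S100A10 and S100A11, found in most cell types, were detected in both lines and higher in H460, and S100A14 was lower there. In the fit over the 4 untreated arrays the 6 genes detected in both lines were called, 5 higher and S100A14 lower. Of 13803 features, 25.1% were called higher and 28.1% lower, 53.2% in all. S100A2, S100A7, S100A8 and S100A9 were fitted because HCC95 expressed them, so their difference is given only as a bound. Under median scaling the calls over all genes were 2349 higher and 4261 lower, against 3468 and 3877, and the 6 genes were still called.

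S100A4 read 14.01 with LZTFL1 and 14.07 with GFP in H460, against 6.16 and 5.63 in untreated HCC95. The gap was 231-fold with LZTFL1 and 348-fold with GFP, and 1 feature of the LZTFL1 pair and none of the GFP pair had a larger positive difference. Over the alternative settings the log2 difference ran from 6.70 to 8.47 with LZTFL1 and from 6.97 to 8.92 with GFP. The second S100A4 probe read 14.17 and 14.19 in H460 and was not detected in HCC95, at least 8.83 higher with LZTFL1 and at least 8.81 with GFP on the log2 scale. S100P read 12.13 with LZTFL1 and 12.21 with GFP in H460, against 5.85 and 5.38 in untreated HCC95, a fitted difference of 6.55 (SE 0.185, limma adjusted p = 2.97e-11) that came to 5.09 without background correction. The highest HCC95 readings, 7.11 for S100A4 and 7.95 for S100P on the array labelled LZTFL1 and TGFβ, still lay below every H460 reading.

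S100A8 was not detected in H460, at least 42.5-fold lower than in HCC95 with LZTFL1 and 43.5-fold with GFP, and S100A9 at least 57.1-fold and 46.3-fold lower. Without background correction the bounds came to log2 differences of -3.84 with LZTFL1 and -4.00 with GFP for S100A8, and -4.25 and -4.09 for S100A9, all smaller than the bounds above. S100A2 was at least 12.96-fold lower with LZTFL1 and 10.05-fold with GFP, and without background correction its log2 bounds came to -2.28 and -2.07. For S100A7, dim in HCC95 too, the bound was 1.12-fold with LZTFL1 and 1.24-fold with GFP. S100A14 read 5.55 with LZTFL1 and 6.22 with GFP in H460, against 7.78 and 8.15 in HCC95, a difference of -2.08 (SE 0.208, limma adjusted p = 3.30e-06).

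S100A6 was 2.23 higher in H460 in the fit (SE 0.171, limma adjusted p = 2.88e-07), with pair values of 1.84 with LZTFL1 and 2.63 with GFP. S100A10 and S100A11 differed least of the 6 genes detected in both lines, by 0.62 (SE 0.118, limma adjusted p = 0.000747) and 0.61 (SE 0.148, limma adjusted p = 0.00411). In the single pairs 3 genes passed 2-fold higher (S100A4, S100A6 and S100P) and 4 passed 2-fold lower with either vector. Of the 4, S100A2, S100A8 and S100A9 were detected in HCC95 alone, so only the lower direction was open to them. S100A14, detected in both lines, could have gone either way. The backgrounds were 10.8% higher and 11.2% lower with LZTFL1, and 11.5% for each direction with GFP.

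Of 13 fitted partners of these proteins, 5 were called higher in H460, 5 lower and 3 not at all. Over all features of that fit, 25.1% were called higher and 28.1% lower. ANXA1, the annexin that S100A11 binds, was 1.60 higher (SE 0.140, limma adjusted p = 9.51e-07), and PLAT differed by -4.59 (SE 0.177, limma adjusted p = 4.58e-10). All 3 fitted receptors and adaptors were higher, ALCAM by 1.69 (SE 0.228, limma adjusted p = 4.60e-05) and MYD88, the adaptor of Toll-like receptors, by 1.43 (SE 0.218, limma adjusted p = 0.000132). Of the genes of the differentiation complex SPRR1A alone was detected in H460, where it differed by -3.66 (SE 0.173, limma adjusted p = 2.95e-09). The other 6 that were fitted were detected in HCC95 alone, so their direction was set by the filter on detection. S100A13 was 2.52 higher in H460 and S100A16 differed by -0.65. S100A3 read 7.18 with LZTFL1 and 7.27 with GFP in H460, against 5.62 with GFP in untreated HCC95, and was not detected in untreated HCC95 with LZTFL1.

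By level in each condition, S100P was highest in H460 with GFP and with LZTFL1, which were closer than the spread of 0.209 between probes of 1 gene in that pair, followed by TGFβ-labelled HCC95 with LZTFL1 and then with GFP, untreated HCC95 with LZTFL1 and untreated HCC95 with GFP. It had the widest range of the 10 genes over the HCC95 arrays, 2.57. The 3 genes outside the set whose pattern over the 6 arrays was most like that of S100P, among 859 compared, were ADSS1 (Pearson's r 0.996), GSTM1 (0.995) and GSTM2 (0.993). Of the 859 genes, 47 had an r above 0.9, and all of them were compared over arrays that include the gap between the 2 lines.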

How the data were processed

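Total RNA of 6 cultures was hybridised to Illumina HumanHT-12 v4 beadchips, 1 array per group, and the groups were taken from the labels. The authors deposited raw probe signal intensities and the detection p-value of each probe, and a second table with processed linear intensities. GenomeStudio 2011.1 is named for them, per the submitters' processing notes, without settings. The deposited processed columns share their quantiles (median 13.1, minimum 3.33) and were used as an alternative only. Their scale is linear and uncentred, and the method of their normalization is unknown.

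From the deposited signal intensities, log2 values were made with limma 3.58.1 in R 4.3.3 (neqc: normexp from the detection p-values, offset 16, quantile normalization). The offset draws dim values together, so their folds are understated. The platform annotation gave 1 symbol to 30113 of the 47323 probes, several to 8, and did not list 17202. By gene identifier, 30074 were matched to the RefSeq gene table (GRCh38.p14), which updated old symbols. The probe with the highest mean stood for its gene, and levels were not compared between probes. A probe with no symbol or several stood as a feature of its own. A probe was detected at p under 0.01, and an undetected value was raised to the lowest detected value of its array, which makes its difference a bound ("at least"). Pairs of arrays were compared by size only, at 2-fold. Additive fits used lmFit and eBayes with a mean-variance trend over genes detected on at least 2 arrays, with Benjamini-Hochberg adjustment at 0.05. The HCC95 fits had vector and TGFβ label as terms, the line fit had line and vector, and the LZTFL1 fit over 3 contexts had context as a block. The labels do not speak of replicate cultures, and the number of arrays limits the precision.

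On simulated data, of 100 genes shifted by 1 on the log2 scale the LZTFL1 fit in HCC95 recovered 90, the TGFβ fit 92 and the line fit 92. The simulations held 12735, 12735 and 13803 features, and 11, 13 and 22 false calls were made among those left unshifted. The simulated noise was additive, with the variances that the same fits had estimated. High recovery was therefore built in, and the counts do not show how well the fits do on these arrays. How far these counts hold for replicate cultures was not tested, as each group has 1 array. The 10 genes, the gene lists and the motifs were chosen with earlier results of these data known. Named are all 10 genes with every probe, for each other list up to 4 genes with the largest called effect, S100 genes outside the set where detected, the 3 genes most like the S100 gene of widest HCC95 range, and LZTFL1 and PMEPA1 as checks of the labels. KRT5, SPRR genes beyond these and members of marker lists stand as context. Alternatives were another offset, no background correction, median scaling, the deposited processed values, the mean of a gene's probes, another detection threshold, no detection filter, no trend and no covariate.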

Additional observations from a re-analysis of the deposited data

Results flagged for a closer look

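In HCC95, 3 of the S100 genes had an LZTFL1 difference of opposite sign on the TGFβ-labelled and the untreated arrays. S100A7 was 0.38 higher with LZTFL1 on the labelled arrays and -0.34 on the untreated ones, a gap of 0.72. S100A8 had 0.28 and -0.24, a gap of 0.52, and S100A2 had -0.11 and 0.16, a gap of -0.27. With 1 array per group these gaps were not tested. Gaps of that size or larger were found in 8.48%, 18.5% and 45.2% of the 12735 features. S100A13 differed between the lines in its LZTFL1 effect, by -1.19 for H460 minus HCC95 (limma adjusted p = 0.0248). It was the only S100 gene fitted for which that test passed, in the main setting. With an offset of 50, median scaling, the mean of probes or no trend, no gene was called lower in that test.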

How the results depend on the processing

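Of 902 values computed for the 10 genes under alternative settings, 817 kept direction and call or moved less than the spread between probes, 59 moved, 22 lost their call and 4 reversed. In array pairs a change of sign counted as a reversal only where a value passed 2-fold. Smaller pair values also changed sign. Examples are S100A14 for the TGFβ label with GFP, from -0.17 to 0.19, and S100P for LZTFL1 in H460, from -0.08 to 0.07. All 4 reversals so counted were in the fits, came with median scaling, and none of them was called: S100A2 -0.0558, S100A7 -0.0650 and S100A8 -0.000905 for LZTFL1 in HCC95, and S100A11 0.11 for the difference in LZTFL1 effect, H460 minus HCC95. The count of genes called for the TGFβ label, 7, became 1 if the mean-variance trend was dropped and 1 if the vector term was. The count for LZTFL1 in HCC95, 3, became 1 with the mean of a gene's probes, 0 without the trend and 0 without the TGFβ term, while 28 and 58 genes of all were still called higher and lower without the trend. The count of genes past 2-fold for the TGFβ label with GFP, 3, became 1 with an offset of 50, with no background correction and with median scaling. For LZTFL1 on TGFβ-labelled arrays, 1 became 0 with no background correction. The cause was not tested. Median scaling moved the median of all genes by -0.21 in the TGFβ fit, -0.19 in the line fit, -0.28 in the TGFβ pair with GFP, -0.15 in the untreated LZTFL1 pair and 0.13 in the H460 pair. In the TGFβ fit, S100A8 was called in 10 of 10 settings, with limma adjusted p from 6.24e-34 to 0.0342, S100A9, S100A7, S100A2, S100A10 and S100P in 8, and S100A4 in 7. The 6 genes detected in both lines were called between them in 10 of 10; the other 4 were fitted through HCC95 alone, and their calls are not counted. Counts over all genes also moved by over 1.5 times: for the TGFβ label 435 higher and 351 lower became 163 and 95 with the mean of probes, 44 and 11 without the trend, and 7 and 2 without the vector term. Signals of S100A7, S100A4 and S100P in HCC95, and of S100A14 in H460, lay near background, which limits their folds. No paired analysis was possible because each group has 1 array, so that groups share 1 replicate number and not 2 or more; the terms for vector, treatment label and context stand in the fits apart from any replicate number. Leaving out a replicate would leave no array in a group.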

Other observations

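Among the 10 genes themselves, 12 of the 45 gene pairs had Pearson's r above 0.8 over the 4 HCC95 arrays and 9 had r below -0.8. These arrays share their groups, and no share over all genes was computed, so the values are a description. S100A6 was in none of these pairs, and S100A4 with S100A10 had -0.43. S100A7 with S100A8 had 0.99 and S100A2 with S100A8 -0.999. Over all 6 arrays S100A2 with S100A8 had 0.93, and neither was detected in H460.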
